A study of Mus musculus with 24 samples.

Results

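The 9 genes described here are Ciita, the master regulator of MHC class II transcription, and 8 genes of the class II pathway (Cd74, H2-Aa, H2-Ab1, H2-Eb1, H2-DMa, H2-DMb1, H2-Oa and H2-Ob). They were taken by gene name from a table of 55434 genes, and all 9 were present and passed the low-count filter of both fits. RNA-seq counts were available for 24 libraries of mouse brain cells selected on CD11b with magnetic beads, with 3 libraries in each of 8 groups. Neonatal MRL/lpr cells spent 48 h in culture and then 6 h with a cytokine, which was interferon gamma (IFNg), IL-6, interferon alpha (IFNa), the tumour necrosis factor TNFa or their mixture, while control cells stayed unstimulated. Adult cells came from untreated MRL/lpr and MRL/MpJ mice, both 16 weeks old. The study is about the kinase gene Ikbke in lupus-prone mice with brain involvement. Lpr is a mutation of Fas that leads to lupus-like disease, so every neonatal group and the adult MRL/lpr group share it, and MRL/MpJ is the parent strain without it. Cytokine doses and the meaning of a replicate number are not given in the labels, so p-values measure only the spread between these libraries. Both strains carry a k-type MHC, whereas the mm10 reference is the C57BL/6 genome with a b-type MHC, and what this does to the counts of polymorphic class II genes was not tested.

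MHC class II molecules are heterodimers on the cell surface that present peptides to CD4+ T cells. H2-Aa and H2-Ab1 encode the alpha and beta chains of I-A, and H2-Eb1 encodes the beta chain of I-E. Cd74, the invariant chain, fills the binding groove of new molecules and guides them to endosomes, where proteases trim it to a short peptide. H2-DM (H2-DMa and H2-DMb1) then exchanges that peptide for antigen, and H2-O (H2-Oa and H2-Ob) restrains H2-DM. Ciita binds no DNA itself. It is recruited by RFX, CREB and NF-Y, which sit together on the X and Y boxes upstream of class II genes. IFNg induces Ciita in part through IRF1, and resting microglia are known for little class II.

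The 7 H2 genes lie on mm10 chromosome 17 between 34092340 (the start of H2-Oa in GENCODE) and 34316674 (the end of H2-Eb1). Promoters in RefSeq (GRCm38.p6, 250 bases before to 50 after a gene's start) were matched for 6 of the 9 members, with 7 windows, since H2-DMa had 2. The stretches below are shown because they match, by letters alone, the X and Y boxes through which Ciita is recruited. Capitals mark a 5-base X core (GNAAC) and the inverted CCAAT of the Y box (ATTGG), read 5′ to 3′ on the gene's strand.
H2-Oa (chr17:34092297-34092346, plus strand): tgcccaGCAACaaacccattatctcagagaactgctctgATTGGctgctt
H2-DMb1 (chr17:34153091-34153140, plus strand): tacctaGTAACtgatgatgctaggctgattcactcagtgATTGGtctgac
H2-Ob (chr17:34238812-34238858, plus strand): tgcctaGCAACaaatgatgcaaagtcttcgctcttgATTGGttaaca
H2-Aa (chr17:34287861-34287910, minus strand): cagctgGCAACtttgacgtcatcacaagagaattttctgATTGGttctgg
H2-Eb1 (chr17:34305770-34305818, plus strand): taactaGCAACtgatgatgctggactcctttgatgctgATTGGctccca

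The pair GNAAC, then 24 to 29 bases, then ATTGG, was present in 5 of the 6 matched genes. In these the X core began 76 to 94 bases and the Y box 43 to 61 bases before the RefSeq start site. That site lies downstream of the GENCODE start for H2-Oa and H2-DMb1, so the H2-Oa stretch runs past the GENCODE start and the H2-DMb1 stretch lies inside the gene as GENCODE gives it. On the gene's strand the pair was present in 0.493% of 32851 promoter windows of the same length, and on either strand in 1.0%. Alone, ATTGG on either strand was in 37.4% and GNAAC in 84.8% of all windows. Neither window of H2-DMa held the pair. The spacing was set after these windows had been read, so the matches are a description.

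All 8 microglia markers, among them Tmem119 and P2ry12, had reads in every group, and their summed level was 39684 to 43090 plain CPM in adult MRL/lpr, 59571 to 60978 in adult MRL/MpJ and 4225 to 8041 in neonatal libraries. Plain CPM is counts per M (mega) of a library's total, and CPM without that word is also scaled by TMM. Library totals ran between 10.08 and 19.32 M. Replicate 1 of every neonatal group stood apart in 4 astrocyte markers, with sums of 289 to 340 plain CPM, against 26.5 to 65.7 in neonatal replicates 2 and 3. This held in unstimulated cells and after each exposure alike, and its part in the class II levels was not tested. In the class II genes and Ciita another pair of libraries stood apart. MRL/lpr replicate 2 had 2.43 times the Cd74 of the mean of its group's replicates 1 and 3 in plain CPM, 1.94 times the H2-Aa and 2.14 times the H2-Eb1, against a median of 0.982 over 13794 genes. Mixture replicate 2 had 0.0263 times the Ciita of the mean of mixture replicates 1 and 3, 0.317 times the Irf1, 0.262 times the Irf8 and 0.201 times the Socs1, genes known as IFNg targets. Over 14583 genes the median of that ratio was 0.995, and 15.1% of genes were at 0.5 or under. Results that rest on these libraries are given with and without them. In bulk samples fewer cells of a type and less RNA per cell cannot be told apart.

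**Figure D1:**
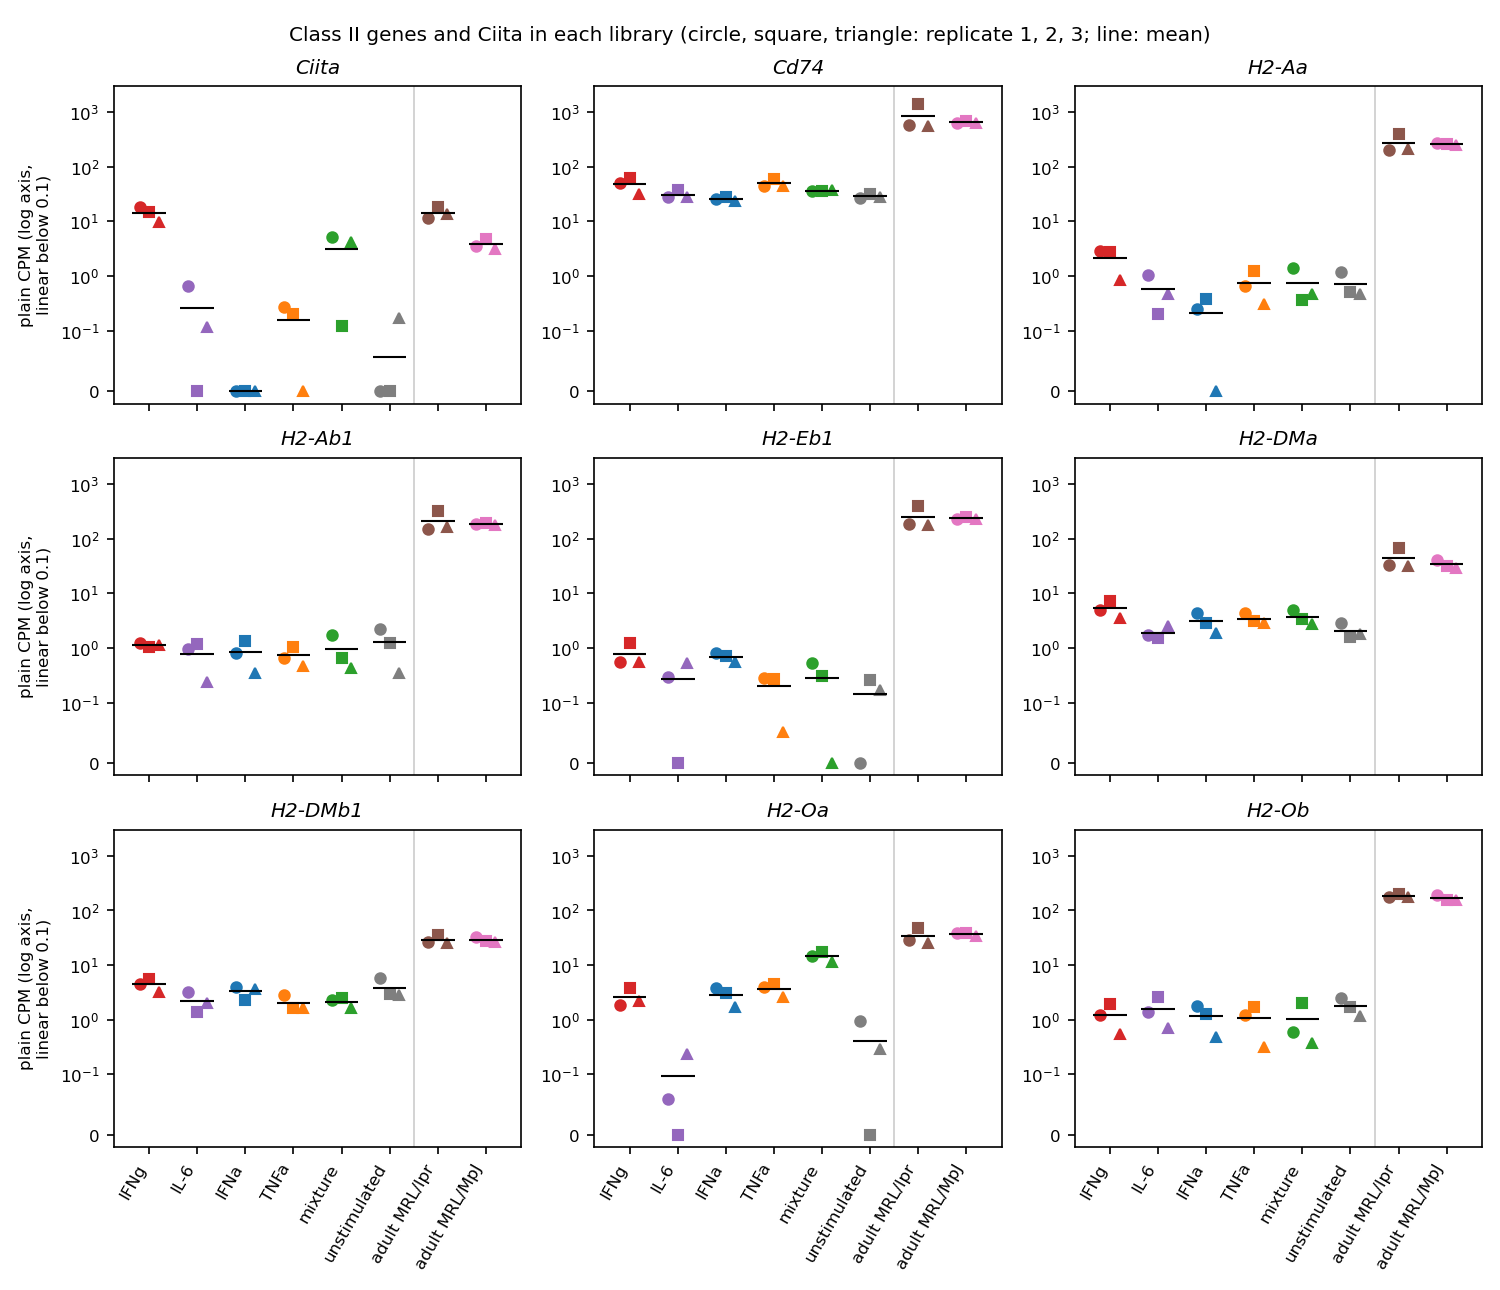
Level of each of the 9 genes in all 24 libraries, in plain CPM on an axis that is logarithmic above 0.1 and linear below. Circles, squares and triangles are replicates 1, 2 and 3, and a black line is the group mean. All genes but Ciita are higher in both adult groups than in every neonatal group, and Ciita under IFNg reaches the adult MRL/lpr range.

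Ciita (mm10 chromosome 16, 10480059 to 10528418, plus strand) was close to absent from unstimulated neonatal microglia and rose with IFNg. It had 297, 227 and 158 reads under IFNg, against 0, 0 and 3 reads in unstimulated cells. In plain CPM this was 18.4, 14.7 and 9.7 under IFNg and at most 0.172 in unstimulated cells, and with TMM scaling the IFNg mean was 14.6 ± 3.94 CPM (SD, n = 3). The difference passed the test (edgeR's quasi-likelihood test, Benjamini-Hochberg adjusted over all genes; adjusted p = 0.00389). No other cytokine alone gave such a level. Ciita had 11, 0 and 2 reads under IL-6, 5, 3 and 0 under TNFa, and 0 in all 3 IFNa libraries. With TMM-scaled totals, summed reads under IL-6 were 4.52 times those of unstimulated cells (95% counting interval 1.24 to 24.7, 13 against 3 reads). Under TNFa they were 2.41 times (0.578 to 14.1, 8 against 3 reads). Neither change passed the test across libraries. Such intervals cover counting error only.

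The difference between the interferons was itself tested. Against IFNa, IFNg gave at least 222-fold higher Ciita (682 against 0 summed reads, with a floor of 3 counts over the IFNa group; adjusted p = 0.00564). Irf1, an activator that acts on the Ciita promoter, averaged 1246 ± 122 CPM under IFNg and 199 ± 24 CPM under IFNa (SD, n = 3 each).

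With the mixture Ciita was uneven. It had 76, 2 and 78 reads (5.65, 0.146 and 5.42 CPM) with the mixture, against 0, 0 and 3 reads in unstimulated cells. The 2 reads of replicate 2 lie within the unstimulated range, so the groups overlap. The summed ratio, again with TMM-scaled totals, was 62.3 (95% counting interval 20.9 to 306). The gene passed the test (adjusted p = 0.00745), as it did without mixture replicate 2 (adjusted p = 0.00152). All 3 mixture libraries lay below all 3 IFNg libraries, but that difference did not pass the test (log2 fold change -1.96 ± 1.09, SE, adjusted p = 0.298). Without mixture replicate 2 it was -1.3 ± 0.993 (adjusted p = 0.526).

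Cd74 (mm10 chromosome 18, 60803848 to 60812652, plus strand), the invariant chain, rose with IFNg, TNFa and the mixture. It had 49.1, 66.3 and 33.5 CPM under IFNg, 38.3, 56.6 and 46.6 under TNFa and 39.4, 43.4 and 48.9 with the mixture, against 21.6, 30.0 and 26.9 in unstimulated cells. None of these 3 groups overlapped with unstimulated cells. Levels of 23.6, 35.4 and 27.3 CPM under IL-6 and 24.3, 28.9 and 25.0 under IFNa lay around the unstimulated values. The log2 fold change was 0.92 ± 0.224 under IFNg (SE, adjusted p = 0.0109), 0.85 ± 0.224 under TNFa (adjusted p = 0.0245) and 0.75 ± 0.224 with the mixture (adjusted p = 0.0168). Scaled by total counts only, which moves the median of all genes by -0.42 in that comparison and by -0.19 under IFNg, the mixture's change was 0.33 and did not pass (adjusted p = 0.196). The IFNg call is lost without IFNg replicate 2 (adjusted p = 0.0815) or unstimulated replicate 1 (0.0606), and the mixture call without unstimulated replicate 1 (0.0788). The TNFa call is lost without unstimulated replicate 1 (0.114) or 3 (0.0698) or TNFa replicate 2 (0.124) or 3 (0.0642). IFNg also gave more Cd74 than IFNa (0.93 ± 0.224, adjusted p = 0.023), a call lost without any of the 6 libraries compared except IFNg replicate 3 (adjusted p 0.0538 to 0.155).

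The plot of Cd74 and H2-Oa against Ciita shows Cd74 raised under TNFa with almost no Ciita. Among libraries with almost no Ciita, H2-Oa exceeded 4.44 CPM in mixture replicate 2 alone. That library also stood apart in Irf1, Irf8 and Socs1. Cd74 averaged 47.2 ± 9.16 CPM under TNFa, where Ciita had at most 5 reads, and 49.6 ± 16.4 CPM under IFNg (SD, n = 3 each). In mixture replicate 2, with 2 Ciita reads, Cd74 was 43.4 CPM and H2-Oa 21.2 CPM, the highest H2-Oa of the 18 neonatal libraries.

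**Figure D2:**
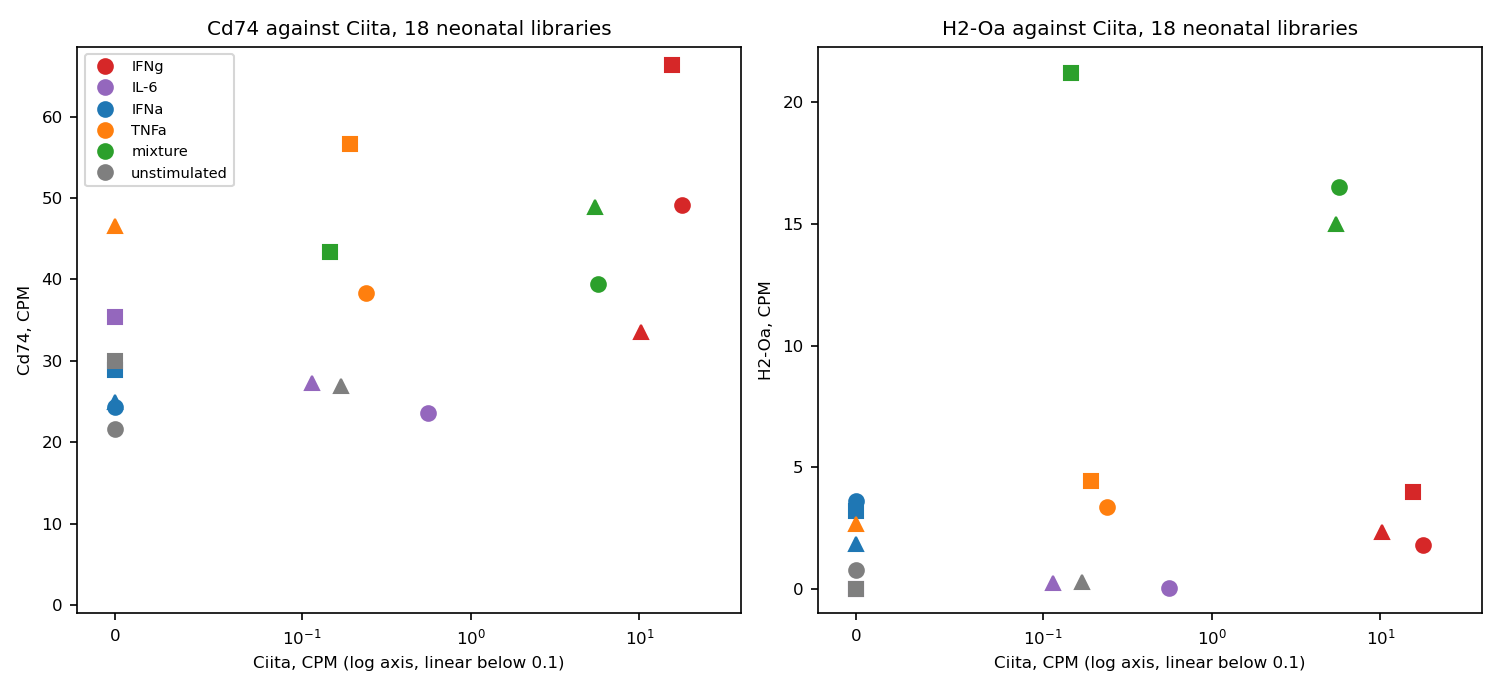
Cd74 (left) and H2-Oa (right) in CPM against Ciita in CPM, on an axis that is logarithmic above 0.1 and linear below, for the 18 neonatal libraries. Colours are groups, and circles, squares and triangles are replicates 1, 2 and 3. The 3 IFNg libraries have the most Ciita but at most 3.98 CPM of H2-Oa, and the mixture libraries have 15.0 to 21.2 CPM of H2-Oa whether Ciita is at 0.146 or 5.65 CPM.

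H2-Oa, the alpha chain of the H2-DM inhibitor, rose under IFNg, IFNa and TNFa and stood highest with the mixture. It had 222, 291 and 216 reads (16.5, 21.2 and 15.0 CPM) with the mixture, against 12, 0 and 5 reads (0.775, 0 and 0.281 CPM) in unstimulated cells. This was 49.4-fold (log2 fold change 5.63 ± 0.817, adjusted p = 5.65e-05). Smaller rises were found under IFNg, with 1.81, 3.98 and 2.33 CPM (log2 fold change 2.93 ± 0.755, adjusted p = 0.016), IFNa, with 3.61, 3.19 and 1.83 CPM (3.02 ± 0.756, adjusted p = 0.0115), and TNFa, with 3.38, 4.44 and 2.68 CPM (3.3 ± 0.759, adjusted p = 0.0104). Under IL-6 it had 1, 0 and 4 reads. No library of the 4 groups with a rise overlapped with unstimulated cells. The calls under IFNg, IFNa and TNFa are lost without unstimulated replicate 3 (adjusted p = 0.0643, 0.0507 and 0.0547), and that under IFNg also without IFNg replicate 2 (0.0701).

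The mixture gave 6.49 times the H2-Oa of IFNg alone (2.7 ± 0.692, adjusted p = 0.0148), a call lost without IFNg replicate 1 (adjusted p = 0.0707) or 3 (adjusted p = 0.058). On the log2 scale the mixture's change did not differ detectably from the sum of the changes under each cytokine (difference -1.93 ± 2.17, adjusted p = 0.876). The antisense gene BC051537 shares 321 exon bases with H2-Oa (22.8% of its exon bases), and it had 0 reads in every neonatal library. The partner chain H2-Ob had 0.669, 2.48 and 0.486 CPM with the mixture, against 2.07, 1.57 and 1.12 CPM in unstimulated cells, and passed the test in no comparison.

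H2-DMa, the alpha chain of the peptide exchange factor, rose under IFNg and the mixture. It had 4.88, 7.69 and 3.68 CPM under IFNg and 5.57, 4.08 and 3.68 with the mixture, against 2.32, 1.45 and 1.74 in unstimulated cells, with no overlap. The log2 fold changes were 1.56 ± 0.386 under IFNg (adjusted p = 0.0125) and 1.27 ± 0.384 with the mixture (adjusted p = 0.0176). The IFNg call is lost without IFNg replicate 2 (adjusted p = 0.0867) or unstimulated replicate 2 (0.0678). The mixture call is lost with scaling by total counts only (0.86, adjusted p = 0.113), with no low-count filter (0.0687), and without mixture replicate 1 (0.0637) or unstimulated replicate 2 (0.0786) or 3 (0.0581). H2-DMa shares 360 exon bases (10.4% of its exon bases) with Brd2 on the opposite strand, and Brd2 also rose, by 1.22 ± 0.158 under IFNg (adjusted p = 7.75e-05) and 2.28 ± 0.164 with the mixture (adjusted p = 5.92e-08). The strand setting of the counting is not given in the sources used here, and the part of Brd2 reads in the H2-DMa count was not tested. Brd2 also rose under IFNa (1.32 ± 0.159, adjusted p = 3.68e-05), where H2-DMa, with 4.21, 3.06 and 1.98 CPM, overlapped with unstimulated cells and was not called. H2-DMb1, which shares no exon with Brd2, had 4.34, 5.98 and 3.43 CPM under IFNg and 2.53, 3.06 and 2.15 with the mixture, against 4.71, 2.71 and 2.81 in unstimulated cells, and was not called.

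No classical chain was called in a neonatal comparison, and their counts were low. H2-Aa had 46, 43 and 14 reads under IFNg (2.77, 2.95 and 0.905 CPM), against 15, 8 and 8 reads in unstimulated cells (0.968, 0.483 and 0.45 CPM). The IFNg group overlapped with unstimulated cells and the gene was not called (log2 fold change 1.79 ± 0.902, adjusted p = 0.25). H2-Ab1 had 20, 16 and 18 reads under IFNg, against 28, 19 and 6 in unstimulated cells. H2-Eb1 had 9, 19 and 9 reads under IFNg, against 0, 4 and 3 in unstimulated cells, and did not pass (2.48 ± 1.23, adjusted p = 0.242). Across all neonatal libraries the highest counts were 46 reads for H2-Aa, 28 for H2-Ab1 and 19 for H2-Eb1, so modest changes were not detectable at this depth. H2-Aa was the only classical chain with a call under an alternative in a cytokine comparison. Set against IFNa, with 4, 6 and 0 reads, IFNg gave a log2 difference of 3.32 ± 0.98 (adjusted p = 0.0646), which passed with the replicate number as a block (3.35, adjusted p = 0.0123).

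Counted over the 9 members, IFNg raised 4 (Ciita, Cd74, H2-DMa and H2-Oa), when 8.57% of the 14626 genes tested were called higher and 4.32% lower. The mixture raised Ciita, Cd74, H2-DMa and H2-Oa, when 15.7% of genes were called higher and 16.4% lower. Without mixture replicate 2 there were also 4, against 14.9% higher and 12.4% lower. TNFa raised Cd74 and H2-Oa (4.38% of genes called higher) and IFNa raised H2-Oa (9.41%). IL-6 changed 0 members in edgeR's test and 0 in DESeq2's, with 0 at an unadjusted p under 0.05, when 0.978% of genes were called in either direction. IFNg exceeded IFNa for 2 members, Ciita and Cd74 (2.81% of genes called higher), or 3 with the replicate block, which adds H2-Aa (7.56%). The mixture exceeded IFNg for H2-Oa alone (6.45% of genes called higher). No member differed from the sum of single changes in edgeR or DESeq2, or at an unadjusted p under 0.05 (1.68% of genes called). No member fell in any of these comparisons. With replicates 2 and 3 only, which leaves out the replicate 1 libraries high in astrocyte markers and was chosen after seeing the data, the members called were Ciita and H2-Oa under IFNg and H2-Oa under IFNa, TNFa and the mixture. The share of all genes called in that smaller fit is not given here. The lower count of members therefore cannot be told from a change over all genes. The median log2 fold change of the members was 1.56 under IFNg and 0.75 with the mixture, beside -0.023 and -0.049 over all genes tested. The 5 comparisons with unstimulated cells share the same 3 control libraries.

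**Figure D3:**
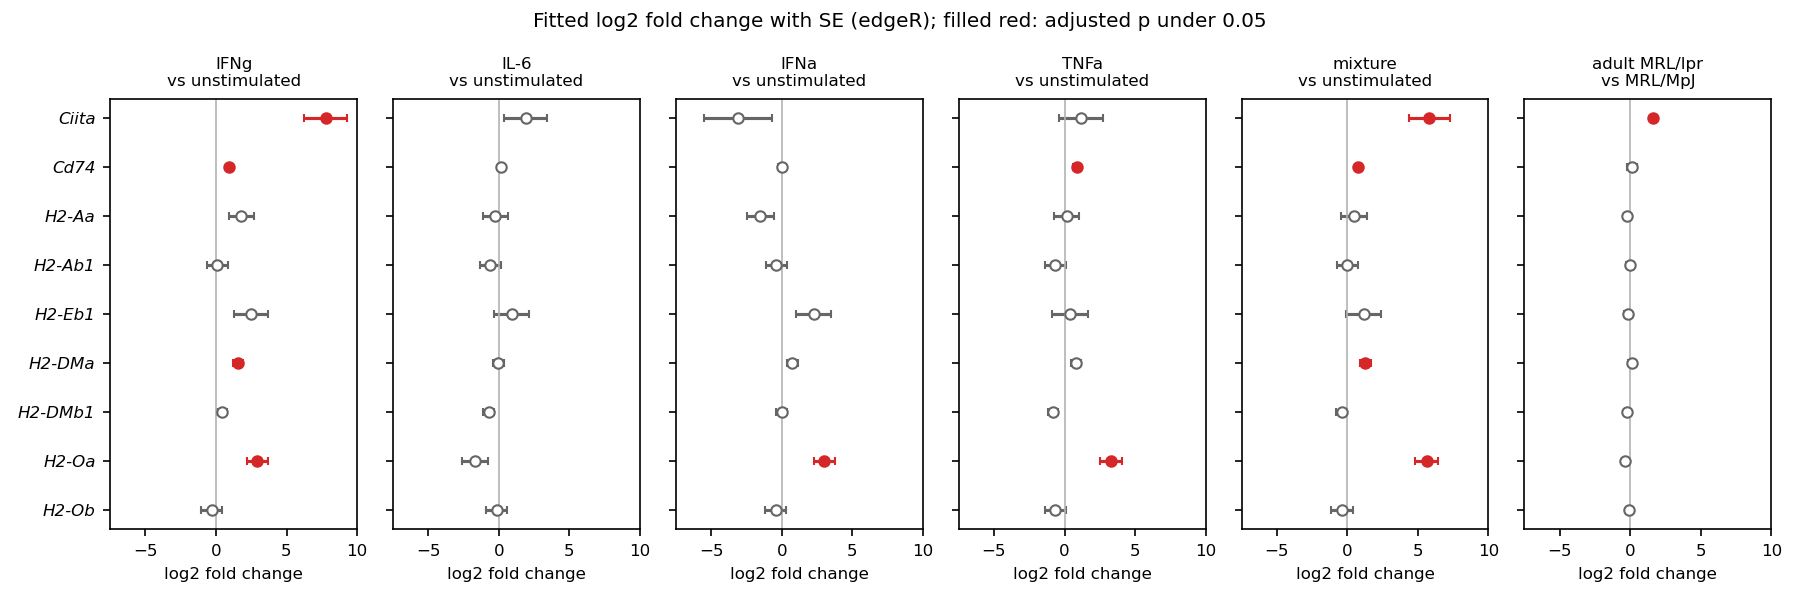
Fitted log2 fold change with its SE for each of the 9 genes in the 5 comparisons with unstimulated cells and in adult MRL/lpr against MRL/MpJ. Filled red points passed an adjusted p of 0.05. Ciita and H2-Oa show the widest changes with cytokines, and Ciita is the only red point in the adult comparison, at 1.64.

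Adult MRL/lpr microglia had more Ciita than adult MRL/MpJ microglia. It had 10.6, 16.9 and 12.1 CPM in MRL/lpr (189, 301 and 231 reads), against 4.0, 5.22 and 3.48 CPM in MRL/MpJ (54, 62 and 51 reads). Every MRL/lpr library lay above every MRL/MpJ library, and the change was 3.12-fold (log2 fold change 1.64 ± 0.26, adjusted p = 0.000338). The call was kept without MRL/lpr replicate 2 (1.44 ± 0.283, adjusted p = 0.00146) and lost when all 24 libraries shared 1 fit (1.57, adjusted p = 0.196). Ciita shares 329 exon bases (3.45%) with Dexi on the opposite strand, and Dexi had a log2 fold change of -0.37 ± 0.172 (adjusted p = 0.0977).

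None of the other 8 members passed the test in adults, so 1 of 9 was higher and 0 lower, when 24.1% of the 13799 genes tested were called higher and 21.6% lower. A share of 1 in 9 is no more than that background. Cd74 had 532, 1290 and 506 CPM in MRL/lpr, against 712, 726 and 702 in MRL/MpJ (log2 fold change 0.12 ± 0.372, adjusted p = 0.816). MRL/lpr replicate 2 lay above all MRL/MpJ libraries and replicates 1 and 3 below them. The same order held for both I-A chains and I-E beta. H2-Aa had 186, 371 and 188 CPM in MRL/lpr, against 305, 286 and 272 in MRL/MpJ. H2-Ab1 had 139, 301 and 147 CPM in MRL/lpr, against 208, 204 and 191 in MRL/MpJ. H2-Eb1 had 172, 364 and 161 CPM in MRL/lpr, against 252, 273 and 248 in MRL/MpJ. In each of these genes the spread within MRL/lpr was larger than the distance between the strains.

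H2-DMa and H2-Oa had that order too. H2-DMa had 30.0, 63.1 and 28.9 CPM in MRL/lpr, against 45.4, 34.5 and 32.0 in MRL/MpJ. H2-Oa had 26.1, 44.6 and 22.6 CPM in MRL/lpr, against 43.9, 41.5 and 37.4 in MRL/MpJ. H2-DMb1 had 23.9, 33.4 and 22.8 CPM in MRL/lpr, against 36.4, 30.2 and 29.5 in MRL/MpJ, so that MRL/lpr replicate 2 was the highest of its group but lay below MRL/MpJ replicate 1. H2-Ob stood out by its evenness, with 165, 186 and 161 CPM in MRL/lpr, against 212, 168 and 170 in MRL/MpJ, and replicate 2 was only 1.12 times the mean of replicates 1 and 3 in plain CPM.

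Without MRL/lpr replicate 2, 7 of the 9 members were called, 1 higher and 6 lower, when 24.7% of 14131 genes were called higher and 21.4% lower. Ciita was then the higher one. Cd74 turned to -0.44 ± 0.0843 (adjusted p = 0.00134), and the other lower genes were H2-Aa at -0.6 (adjusted p = 0.000256), H2-Ab1 at -0.47 (0.00154), H2-Eb1 at -0.61 (0.000338), H2-DMb1 at -0.43 (0.0313) and H2-Oa at -0.73 (0.00134). MRL/lpr replicate 2 was set apart by its high level of these same genes, so leaving it out lowers their MRL/lpr means. The 2 MRL/lpr libraries left were the most alike of all same-group pairs (chi-square per degree of freedom 5.07). The SE of Cd74 was 0.372 with all libraries. These 6 lower calls are thus a description and no separate test of the strains. Scaling by total counts only shifts the median of all genes in the adult comparison by 0.26 upwards. With that scaling and without MRL/lpr replicate 2, an alternative chosen after seeing the data, 1 member was higher and 3 were lower (H2-Aa -0.35, H2-Eb1 -0.36 and H2-Oa -0.48), and Cd74 was at -0.19 (adjusted p = 0.0813).

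**Figure D4:**
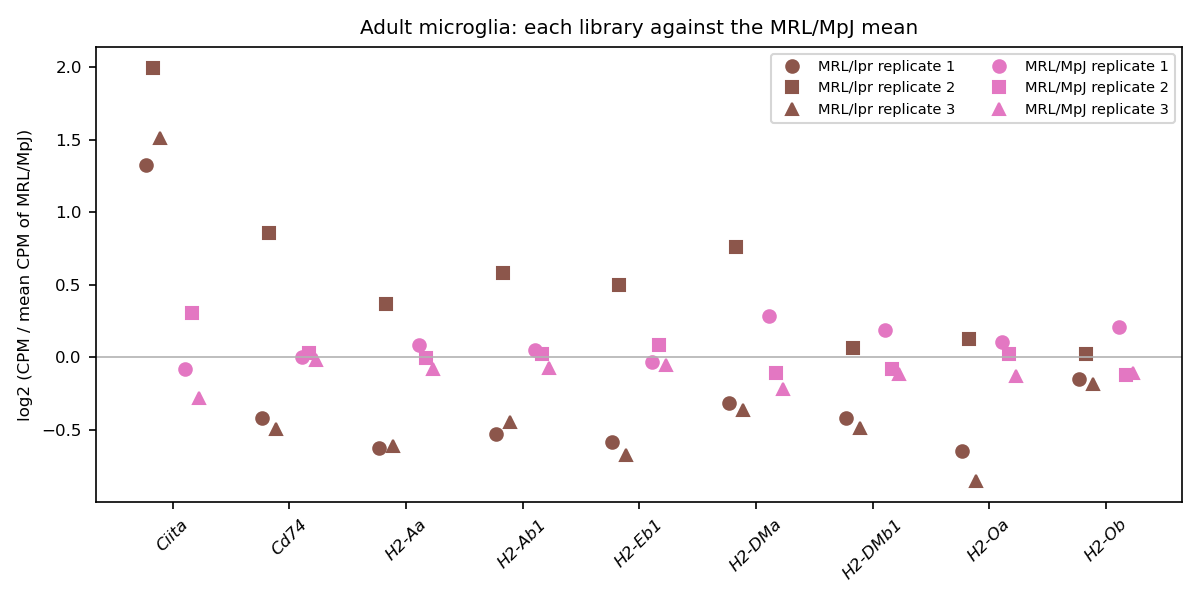
Each adult library as the log2 ratio of its CPM to the mean CPM of MRL/MpJ, for the 9 genes. Brown points are MRL/lpr and pink points MRL/MpJ, with circles, squares and triangles for replicates 1, 2 and 3. For Cd74, H2-Aa, H2-Ab1 and H2-Eb1 the square of MRL/lpr replicate 2 is above all MRL/MpJ points and the other MRL/lpr points are below them, while all 3 MRL/lpr points of Ciita are above.

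Other measures differed along with that library. Igkc, the immunoglobulin kappa constant region, had 16.6, 60.4 and 13.4 CPM in MRL/lpr, against 2.59, 6.15 and 1.16 in MRL/MpJ. Summed over 10 B and plasma cell markers the level was 605, 759 and 612 plain CPM in MRL/lpr, against 371, 414 and 389 in MRL/MpJ, while Ms4a1 and Cd79a, which define B cells, were each under 1 plain CPM in every MRL/lpr library. Most of that sum was Ighm, the mu heavy chain, at 595 ± 51.2 plain CPM in MRL/lpr and 354 ± 16 in MRL/MpJ (SD, n = 3 each). Cd79b, a B cell receptor subunit, was lower in MRL/lpr (15.0 ± 1.06 plain CPM, against 25.8 ± 3.05 in MRL/MpJ; log2 fold change -1.04 ± 0.148, adjusted p = 0.000164). The sum over 9 dendritic cell markers was 1318, 1318 and 1258 plain CPM in MRL/lpr, against 835, 1088 and 993 in MRL/MpJ. Most of it was Siglech, at 1240 ± 39.8 in MRL/lpr and 891 ± 132 in MRL/MpJ. No other marker of that list averaged over 28.4 plain CPM in either strain. Of the 6 dendritic cell markers tested 0 were higher and 2 lower in MRL/lpr. Over 6 monocyte markers the sum was 152, 68.1 and 220 in MRL/lpr, against 72.2, 54.6 and 62.1 in MRL/MpJ, with MRL/lpr replicate 2 the lowest of its group. The 9 border macrophage markers summed to 774, 450 and 750 in MRL/lpr, against 629, 536 and 539 in MRL/MpJ. Stab1, a scavenger receptor, made up most of that sum in MRL/lpr (509 ± 138 plain CPM in MRL/lpr and 275 ± 25.2 in MRL/MpJ) and was the 1 border macrophage marker called higher, while 6 were lower, and 8 without MRL/lpr replicate 2. The 5 NK cell markers summed to 34.7, 41.0 and 45.3 plain CPM in MRL/lpr, most of it Gzma, against 14.8, 4.53 and 5.6 in MRL/MpJ. The 6 T cell markers summed to 13.4, 10.9 and 9.65 in MRL/lpr, against 9.19, 4.93 and 7.4 in MRL/MpJ, and the astrocyte markers to 166, 191 and 149 in MRL/lpr, against 129, 119 and 120 in MRL/MpJ. The part of these cells in the class II levels was not tested. The neonatal monocyte sum was 152 to 170 plain CPM under IFNg, 150 to 244 under TNFa and 102 to 181 with the mixture. Under IFNa, where Cd74 was not called, it was 116 to 131. Unstimulated cells had 35.2 to 49.6 and cells under IL-6 had 23.4 to 43.1. Itga4, an integrin chain, carried nearly all of the sum under IFNg, TNFa and the mixture. Its level was 157 ± 8.34 plain CPM under IFNg, 178 ± 54.7 under TNFa and 128 ± 39.1 with the mixture, against 39.1 ± 7 in unstimulated cells. Of the 6 monocyte markers Itga4 was the only one called under IFNg and TNFa, and Plac8 was also higher with the mixture. Ly6c2 and Ccr2, which define classical monocytes, were at 0.268 ± 0.254 and 0.911 ± 0.512 plain CPM under IFNg, against 0.632 ± 0.448 and 1.85 ± 0.6 in unstimulated cells. Ly6c2 averaged 1.1 ± 0.41 with the mixture, 1.08 ± 0.637 under IFNa and 0.562 ± 0.469 under TNFa. Ccr2 averaged 0.975 ± 0.0308, 1.27 ± 0.595 and 0.976 ± 0.0382 in the same order. The part of these markers in the changes of Cd74 and H2-Oa was not tested.

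Most genes listed for the route from the IFNg receptor to Ciita, a list that includes the feedback inhibitor Socs1, changed with IFNg. Of 11 genes on the route from the IFNg receptor to Ciita, 8 rose and 1 fell under IFNg (median log2 fold change 1.02), and 9 rose and 1 fell with the mixture (median 2.02), also without mixture replicate 2. Over all genes tested, 8.57% were called higher and 4.32% lower under IFNg, and 15.7% higher and 16.4% lower with the mixture. The change was not particular to IFNg. Under IFNa, where Ciita had 0 reads, 6 of the 11 rose and 1 fell (median 0.7), when 9.41% of genes were called higher and 5.07% lower. TNFa raised 3 and lowered 1 (4.38% of genes higher and 3.72% lower), and IL-6 changed 0. Set against IFNa, IFNg gave higher levels for 3 and lower for 0 (2.81% of genes higher and 2.36% lower). Socs1, the feedback inhibitor of JAK kinases, rose by 7.58 ± 0.75 under IFNg (adjusted p = 1.19e-05) and 7.33 ± 0.743 with the mixture (adjusted p = 3.12e-06). Irf1 rose by 4.86 ± 0.41 under IFNg and 4.57 ± 0.404 with the mixture. Irf8, a macrophage transcription factor, rose by 2.79 ± 0.369 under IFNg, and the kinase gene Jak2 by 2.46 ± 0.174 with the mixture. Ifngr1, the ligand-binding receptor chain, was the gene that fell, by 1.5 under IFNg and 1.93 with the mixture.

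In adults 2 of the 11 were higher and 3 lower in MRL/lpr than in MRL/MpJ (median -0.06, beside 0.011 over all genes), which is close to the 24.1% of all genes called higher and 21.6% called lower. Irf1 was among the higher (0.75 ± 0.15, adjusted p = 0.00157). Ifngr1 was lower (-0.81 ± 0.0951, adjusted p = 4.48e-05). Without MRL/lpr replicate 2 these calls were kept.

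Of the 7 genes for the proteins that recruit Ciita, none was called under IFNg, 1 was higher and 1 lower with the mixture, and 2 were higher in adult MRL/lpr. These are near the shares over all genes, 15.7% higher and 16.4% lower with the mixture and 24.1% higher in MRL/lpr. Rfx5, the DNA-binding RFX subunit, rose by 1.66 ± 0.244 with the mixture (adjusted p = 6.24e-05) and was 0.6 ± 0.134 higher in MRL/lpr (adjusted p = 0.00311). The NF-Y subunit Nfya fell by 0.39 with the mixture, and Nfyb was 0.51 ± 0.143 higher in MRL/lpr (adjusted p = 0.0117).

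Genes for proteolysis of antigen and invariant chain were lower in adult MRL/lpr, 8 of 9 with 0 higher (median -0.7), and 9 of 9 without MRL/lpr replicate 2, when 21.6% and 21.4% of all genes were called lower. Ctsd, a lysosomal aspartic protease, was at -1.03 ± 0.165 (adjusted p = 0.000382), with 3894, 5437 and 3437 CPM in MRL/lpr, against 8025, 10231 and 7804 in MRL/MpJ. Lgmn, asparagine endopeptidase, was at -0.95 ± 0.103 (adjusted p = 2.62e-05). Ctss, the cathepsin that makes the last cuts in the invariant chain, was at -0.88 ± 0.152 (adjusted p = 0.000632), with 5025, 7415 and 4840 CPM in MRL/lpr, against 10296, 11573 and 9879 in MRL/MpJ. Microglia markers were also lower in MRL/lpr, as the sums above show, and their part was not tested. Under IFNg 1 of the 9 rose (Ctsh, 0.44 ± 0.129), and with the mixture 2 rose (Sppl2a, the protease that cuts the invariant chain in the membrane, 1.55 ± 0.26, and Ctsh, 0.38 ± 0.129).

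Among 8 genes for class II turnover and partners, 5 were lower and 0 higher in adult MRL/lpr (median -0.5), when 21.6% of all genes were called lower and 24.1% higher. The tetraspanin genes Cd63 and Cd82 were at -1.16 ± 0.175 and -0.72 ± 0.0968, and March1, a ubiquitin ligase that removes class II from the surface, at -0.54 ± 0.126. Without MRL/lpr replicate 2, 6 were lower and 1 higher. Cd83, which opposes March1, rose by 1.6 ± 0.384 under IFNg and 1.17 ± 0.38 with the mixture, and March1 rose by 1.68 ± 0.397 with the mixture.

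Of 3 further genes of the class II region, H2-Eb2 was tested in neither fit, and no call was made for the others in these 3 comparisons. H2-DMb2, a near copy of H2-DMb1 whose reads the counting could share with it, averaged 18.1 ± 4.7 CPM in adult MRL/lpr and 20.6 ± 2.78 CPM in MRL/MpJ. H2-Ea-ps, named for the disrupted I-E alpha gene of C57BL/6, had 115, 221 and 124 CPM in MRL/lpr, against 161, 135 and 141 in MRL/MpJ. MRL/lpr replicate 2 was again the highest of its group.

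Levels of different genes were compared per kb of gene length, in plain CPM per kb. In adult MRL/MpJ the order was Cd74 (388 ± 11.5), H2-Eb1 (121 ± 7.97), H2-Ab1 (71.5 ± 3.28), H2-Aa (69.2 ± 3.59), H2-Ob (31.0 ± 3.74), H2-Oa (26.5 ± 2.07), H2-DMb1 (17.4 ± 1.86), H2-DMa (9.85 ± 1.77) and Ciita (0.406 ± 0.0913, SD, n = 3). Only H2-Ab1 and H2-Aa overlapped as neighbours in that order. The order of means in adult MRL/lpr was the same, with Cd74 at 503 ± 282. In unstimulated neonatal cells Cd74 was at 17.1 ± 1.85, H2-DMb1 followed at 2.3 ± 0.996 and H2-DMa at 0.599 ± 0.202, with no overlap, and every later pair of neighbours overlapped. Cd74 was first in every group. Cd74 per kb was 1.59 to 1.91 times the sum of H2-Aa, H2-Ab1 and H2-Eb1 per kb in adult MRL/lpr, 1.46 to 1.53 times in MRL/MpJ and 13.4 to 92.7 times in the neonatal libraries, where that sum rests on few reads.

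Across groups of neonatal cells, the order of Ciita was IFNg, mixture, IL-6, TNFa, unstimulated and IFNa, and only the step between IFNg and the mixture had no overlap. For Cd74 it was IFNg, TNFa, mixture, IL-6, unstimulated and IFNa, and only the mixture and IL-6 did not overlap. For H2-Oa it was mixture, TNFa, IFNa, IFNg, unstimulated and IL-6, with gaps below the mixture and below IFNg.

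The genes whose pattern was nearest to that of Cd74 over the 24 libraries, of 9622 compared, were Ctsh, Cst3, Lpcat2, Lag3 and Lrba. Their root mean square difference from Cd74 in centred log2 CPM was 0.45, 0.45, 0.52, 0.54 and 0.6, beside an SD of 1.91 for Cd74 itself. Lag3, for example, was at 22.0 ± 2.24 plain CPM with the mixture and 354 ± 77.3 plain CPM in adult MRL/lpr. Nearest to Ciita were Slamf8, Tagap, Tmem173, Entpd1 and Tlr12, at 1.8 to 1.83 beside an SD of 2.85, so no gene followed Ciita closely. Slamf8, a macrophage receptor, averaged 298 ± 90.9 plain CPM under IFNg, 216 ± 97.6 with the mixture and 3.9 ± 1.81 in unstimulated cells. Within groups, deviations of Cd74 from the group mean were most like those of Cpq, Rps29, Txndc17, Rpl34-ps1 and Cstb, at 0.14 to 0.19 beside an SD of 0.3.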

How the data were processed

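RNA-seq read counts per gene were analysed in 24 libraries, 3 in each of 8 groups assigned from the labels. Per the submitters' processing notes, the tools were STAR 2.7.1a and cutadapt 2.1, and the build was mm10. The authors deposited raw counts per gene with no normalisation, and a gene length, per the file headers. How reads were counted, and whether strand was used, is not given in the sources here, which leaves counts of overlapping genes and near copies uncertain. Coordinates are from GENCODE on mm10.

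Counts were fitted with edgeR 4.0.16 under R 4.3.3, with TMM scaling after filterByExpr and the robust quasi-likelihood F test. P-values were adjusted by Benjamini-Hochberg over every gene of a fit, and calls were made below 0.05. "Rose", "fell", "higher" and "lower" with a fold change refer to such calls. Adult and neonatal libraries had a fit each, of 6 libraries (13799 genes, 4 residual degrees of freedom, and a biological coefficient of variation of 0.181) and 18 libraries (14626 genes, 0.397, 12 residual degrees of freedom). SE was computed from the F statistic as log2 fold change over its root. The fitting code was also run on simulated counts with known changes. These were drawn for each library without a replicate effect, so that run does not bear on p-values where replicate numbers pair libraries. In 24 pairs of libraries of a group, counts differed beyond counting error (chi-square per degree of freedom at least 5.07). Levels are mean ± SD, n = 3. Likeness used log2 CPM with a prior count of 2 and genes with a mean of at least 2.

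Replicate numbers pair the neonatal libraries, since deviations of all 45 same-numbered pairs correlated over 0.1 (0.184 to 0.687). This comes from the data and not from the labels. The main and leave-one-out fits had group terms only, so their p-values and lost calls do not use the pairing. With the replicate block 23.7% of genes were called in either direction under IFNg, against 12.9% without it. In adults 2 of 3 pairs did, and the numbers were not read as pairs. Alternatives were the replicate block, DESeq2 1.42.0, RLE factors, total counts only, no filter, other sets of libraries in the fit and each replicate left out. In a leave-one-out fit a group of 2 shares the spread estimate of the others. For a member called in neither fit, a change of sign is not counted as a reversal.

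The 9 members and all gene lists were chosen with earlier results of these data known. All members are named in every comparison. Of each pathway list up to 3 called genes with the largest change are named for adult, IFNg and mixture. Genes beside a result, such as Brd2, Igkc and H2-Ea-ps, and values of Irf1 and Irf8 by library were chosen after their values were seen. Some genes that these rules name are not reported here by name, and the counts and sums of their lists include them.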

Additional observations from a re-analysis of the deposited data

How the results depend on the processing

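For the 9 members, 42 of the alternative values lost a call, 16 gained one and 2 reversed. The share of all genes called is not given here for most of the alternatives. A changed count of members therefore cannot be told from a change over all genes. The 2 reversed values are Cd74 in adults, -0.44 without MRL/lpr replicate 2 and -0.43 with RLE factors as well (adjusted p = 0.00134 and 0.00152, against 0.12 with all libraries and up to 0.36 without MRL/lpr replicate 3). Both leave out the MRL/lpr library with 1290 CPM of Cd74. Its group's replicates 1 and 3 had 532 and 506 CPM, below the 702 to 726 CPM of MRL/MpJ. Why MRL/lpr replicate 2 stood high was not tested. The count of members called in adults, 1, became 0 with all 24 libraries in 1 fit, 7 with RLE factors and 4 with total counts when MRL/lpr replicate 2 was also left out, both settings chosen after seeing the data. With only the groups compared in the fit, which leaves fewer degrees of freedom, counts were 2 for IFNg (H2-DMa at an adjusted p of 0.0505 and H2-Oa at 0.119), 0 for IFNa (H2-Oa, 0.107), 1 for TNFa (H2-Oa, 0.106), 2 for the mixture (H2-DMa, 0.0546, with Ciita not tested) and 1 for IFNg against IFNa (Cd74, 0.0744). With total counts only, the mixture count was 2. With neonatal replicates 2 and 3 only, chosen after seeing the data and with fewer samples, counts were 2 for IFNg (Cd74 0.153, H2-DMa 0.0587), 1 for TNFa (Cd74 0.145), 1 for the mixture (Ciita 0.0628, Cd74 0.102, H2-DMa 0.0858), 0 for the mixture against IFNg (H2-Oa 0.0579) and 0 for IFNg against IFNa (Ciita 0.101, Cd74 0.239). Leaving out each replicate in turn gave 1 to 7 members in adults, 1 to 4 under IFNg, 0 to 0 under IL-6, 0 to 1 under IFNa, 0 to 2 under TNFa, 3 to 4 with the mixture, 0 to 1 for the mixture against IFNg, 1 to 2 for IFNg against IFNa, and 0 to 0 against the sum. Under IFNg the lowest count was without IFNg replicate 2, where Cd74 was at 0.0815, H2-DMa at 0.0867 and H2-Oa at 0.0701. Under TNFa the count was 0 without unstimulated replicate 3 (Cd74 0.0698, H2-Oa 0.0547), and under IFNa also (H2-Oa 0.0507).

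The replicate block in the adult fit, where the numbers are not pairs, gave 2 members, with H2-Oa at -0.46 (adjusted p = 0.0327). With that block 25.8% of all genes tested were called higher and 24.4% lower. In the neonatal fits the block added H2-Aa for IFNg against IFNa and changed no other call of a member. Precision is limited by 3 libraries a group and, for the classical chains in neonatal cells, by counts of a few reads.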

Other observations

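Psmb9 and Tap1, genes of class I antigen processing that lie between the class II genes of chromosome 17 and were chosen after their values were seen, rose under both interferons. Psmb9 rose by 2.24 ± 0.241 (log2) under IFNg and 2.23 ± 0.241 under IFNa (adjusted p = 1.43e-05 and 1.47e-05). Tap1 rose by 2.96 ± 0.384 under IFNg and 2.92 ± 0.384 under IFNa (adjusted p = 8.65e-05 and 9.02e-05). IFNg set against IFNa gave 0.02 ± 0.23 for Psmb9 and 0.04 ± 0.356 for Tap1, neither called, whereas Ciita and Cd74 were called in that comparison. Both were also higher in adult MRL/lpr than in MRL/MpJ, Psmb9 by 0.6 ± 0.171 (adjusted p = 0.0131) and Tap1 by 0.42 ± 0.158 (adjusted p = 0.0459).

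The NK cell markers summed to 34.7 to 45.3 plain CPM in adult MRL/lpr and 4.53 to 14.8 in adult MRL/MpJ, and to at most 1.11 in the neonatal libraries. The T cell markers summed to 9.65 to 13.4 plain CPM in adult MRL/lpr and 4.93 to 9.19 in adult MRL/MpJ.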
